A study of Mus musculus with 12 samples.

Results

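Synaptic vesicle release genes encode the proteins that store neurotransmitter vesicles, dock them at the presynaptic membrane and fuse them when calcium enters the nerve ending. Protein-coding genes were taken by symbol, as Syt, Stx, Stxbp, Vamp, Snap, Syn, Sv2, Cplx, Unc13, Rab3 or Rims with digits and at most 1 letter from a to d, together with Syp. Of 89 such genes among the 47729 in the data, 88 had at least 10 counts in total over 11 mice and were kept. The gene left out was Syt8 with 9 counts, and the members nearest to the minimum were Cplx4 with 27 counts and Vamp9 with 38. The families that the symbols stand for held 73 members, counting Snap91, a clathrin assembly protein that shares only its letters with Snap25. The other 15 carry the same letters without belonging to those families, namely Rab30, Rab31, Rab32, Rab33a, Rab33b, Rab34, Rab35, Rab36, Rab37, Rab38, Rab39, Rab39b, Syna, Synb and Sync. Membership rests on the symbol, and the families also hold members known from traffic outside the synapse, such as Vamp3 of recycling endosomes. Counts by family are therefore not counts of synaptic release genes alone.

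Bilateral amygdalae of 12 female C57/BL6 mice, an inbred strain, were sequenced in 1 run with 1 mRNA library per mouse. The animals were age-matched and nulliparous, and the labels name no drug and no engineered allele in any group. Before dissection each animal had been tested in a light/dark box (LD), an elevated plus maze (EPM) and a social interaction test with 3 chambers (SIT). The labels place mice 3, 7 and 12 in the less anxious group and mice 1, 4, 8 and 11 in the anxious group. Mice 2, 6, 9 and 10 are in the more anxious group. Mouse 5 has no group, and the study left it out as an outlier in a principal component analysis of expression. The study formed the groups as tertiles of the second principal component (PC2) of the same RNA counts. No comparison over them is therefore independent of the expression data. In a PC2 recomputed here, more anxious mouse 6 (0.32) fell between anxious mice 11 (-2.98) and 8 (4.39). The more anxious mouse 6 had the largest share of time in the light (46.6%) and on open arms (29.2%) of the 11 mice with a group. The library of more anxious mouse 9 stood apart, with a median of 100.8 for the mean chi-square per gene over its 11 pairs with other mice, against medians of 43.1 to 66.6 for the other mice. Levels below are counts per 1000000 (CPM) with TMM scaling, and values with ± are SDs over the mice of a group unless called a standard error (SE).

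Release works in steps that different members carry out. Synapsins tether vesicles in a reserve pool, and Rab3 GTPases with RIM proteins bring them to the active zone. There, Unc13 proteins prime them by opening syntaxin, which pairs with Snap25 and Vamp2 to form the SNARE complex. Complexins clamp the assembled complex until a synaptotagmin binds calcium and triggers fusion. In the amygdala, which processes threat, both excitatory and inhibitory neurons use this machinery.

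Levels of the members spanned a wide range. Together, members took between 1.47% and 1.67% of all counts of a mouse (1.49% to 1.57% in the less anxious, 1.47% to 1.58% in the anxious and 1.48% to 1.67% in the more anxious mice). Per kilobase of exonic length, synaptophysin (Syp), an integral protein of the vesicle membrane, had the highest level of all members with a median of 287 CPM per kilobase (257 to 337). The target-membrane SNARE Snap25 followed at 280 CPM per kilobase (233 to 361), a range that overlapped that of Syp. Next came the vesicle GTPase Rab3a (259), the vesicle SNARE Vamp2 (206), the complexin Cplx2 (202), the synapsin Syn1 (156) and the fast calcium sensor Syt1 (154), each as a median in CPM per kilobase. Active-zone proteins lay lower, with 25.7 CPM per kilobase for the priming factor Unc13a and 23.4 for the scaffold Rims1. At the other end stood Cplx4, a complexin known from the retina, with a median of 0.0309 CPM per kilobase.

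In each mouse a single paralog dominated some pairs and not others. Vamp2 exceeded Vamp1 per kilobase by a median of 29.3-fold (24.3 to 37.8), and Syt1 exceeded Syt2 by 156-fold (75.0 to 186). The excess was 7.03-fold for Rab3a over Rab3c and 5.63-fold for Rims1 over Rims2. By contrast, Sv2a was 2.31-fold above Sv2b and Cplx2 was 1.62-fold above Cplx1. Syn2 was at 0.563 of the level of Syn1 (0.435 to 0.798). These ratios use the summed exon length of each gene, which can differ from the length of the transcripts in use.

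Across the 11 mice the coefficient of variation (CV) was below 10% in 22 members and at least 30% in 8, with a median of 14.4%, against 14.3% for the 15891 genes with a mean of at least 1 CPM. Syt1 (7.14%), Syp (7.88%) and Vamp2 (8.06%) were among the steadiest, and Syt2 (29.9%) and Syt10 (37.9%) among the most variable. In 86 members every mouse had a count.

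**Figure D1:**
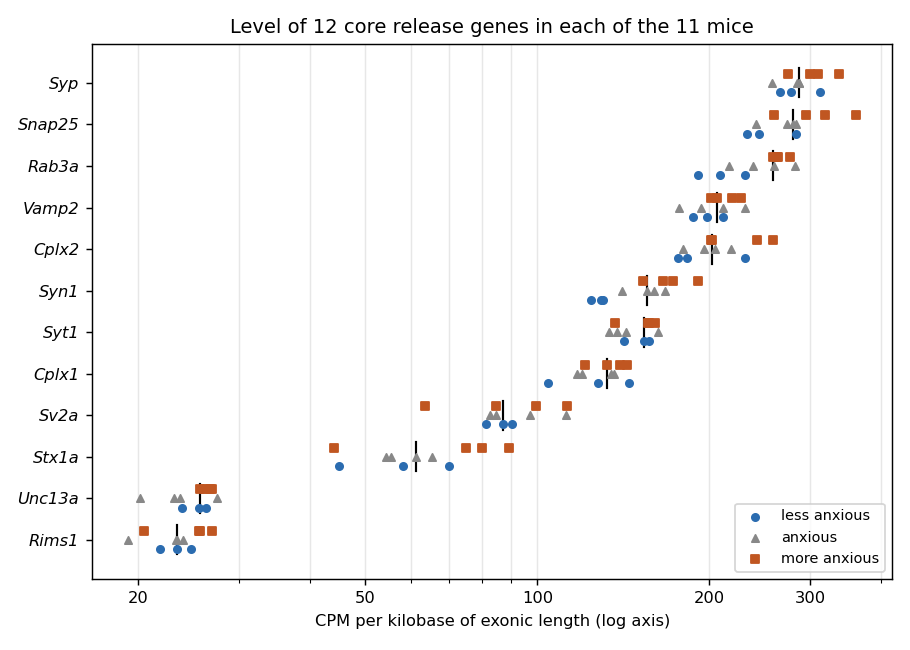
Level of 12 core release genes in CPM per kilobase of exonic length (log axis), with 1 point per mouse, colored by group, and a black line at the median of the 11 mice. Syp, Snap25 and Rab3a lead and Unc13a and Rims1 are lowest, and the less anxious mice lie to the left of the more anxious mice for Syn1 and Rab3a.

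Whether release genes differed over the anxiety groups was tested with edgeR's quasi-likelihood F-test over all 26963 genes with at least 10 counts, with the PC1 score as covariate. No member passed a Benjamini-Hochberg adjusted p of 0.05, a threshold that 0.00742% of all genes (2 genes) passed. At an unadjusted p under 0.05 there were 11 members, or 12.5%, beside 6.35% of all genes tested and 7.72% of genes with a mean of at least 1 CPM. Of the 11, 7 were higher in more than in less anxious mice (background 3.95%) and 4 were lower (background 2.40%). The count depended on single animals, being 3 without mouse 9 (3.41% of members, background 4.57%), 6 without mouse 7 (background 5.19%), 7 without mouse 10 (background 5.65%) and 16 without mouse 3 (18.2% of members, background 7.31%). The fits without a mouse kept the groups and the PC1 scores computed from all 11 mice. Coding the groups as an ordered number gave 20 members (background 9.18%).

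Over all members the direction was mixed. In more against less anxious mice 48 of 88 were higher, or 54.5%, beside 50.5% of all genes. The median log2 fold change of more against less anxious was 0.04 in the members and 0.00 in all genes tested. In 14 members the values of less and more anxious mice did not overlap (7 higher, beside 4.49% of all genes, and 7 lower, beside 3.91%), or 15.9% in both directions, where 8.40% of all genes and 10.0% of those with a mean of at least 1 CPM did not overlap. By family, 11 of 15 syntaxins, 7 of 16 synaptotagmins, 4 of 8 Vamp genes and 4 of 4 complexins had a higher estimate in more anxious mice, and the family medians ran from -0.15 (Rims) to 0.36 (Cplx). The Cplx median lay midway between the abundant Cplx2 (0.17) and the low-level Cplx3 (0.54, SE 0.215). The low-level Cplx4 had the highest estimate (0.81, SE 0.894) and the abundant Cplx1 the lowest (0.08, which turned to -0.01 without mouse 3).

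**Figure D2:**
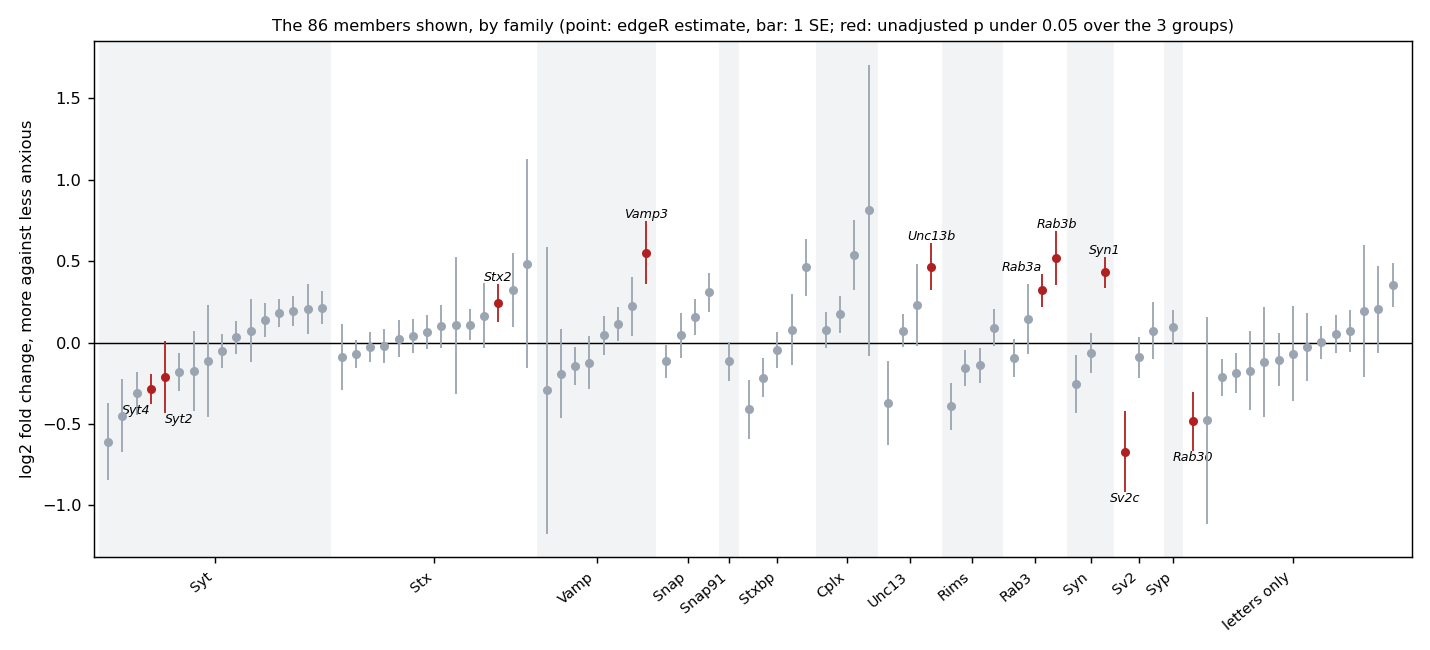
Log2 fold change of more against less anxious mice for 86 members, grouped by family and ordered by size within it; points are edgeR estimates, bars are 1 SE, and red marks 10 members with an unadjusted p under 0.05. Most points lie within 0.5 of 0, and the widest bars belong to Vamp9 and Cplx4, which had 38 and 27 counts.

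Among vesicle-tethering genes, Syn1, an X-linked synapsin of most presynaptic terminals, had the smallest p of all members. Its CPM was 410.2, 430.2 and 427 in less anxious mice 3, 7 and 12. It was 527, 551, 465 and 514 in anxious mice 1, 4, 8 and 11, and 549, 505, 631 and 569 in more anxious mice 2, 6, 9 and 10. Every less anxious mouse lay below every other mouse, and the anxious and more anxious groups overlapped. Syn1 averaged 422 ± 11 CPM in the less anxious group (n = 3), 514 ± 36 in the anxious group (n = 4) and 563 ± 52 in the more anxious group (n = 4). The log2 fold change of more against less anxious was 0.43 (SE 0.096, edgeR unadjusted p = 0.00197, adjusted p = 0.43). DESeq2's likelihood ratio test, the test that the study used, called Syn1 (adjusted p = 0.00401) as the only member, where it called 0.594% of 34511 genes. Syn1 also stands on the list of genes that the study selected from these libraries, so its difference is not independent evidence. With an offset for GC content, which is 57.9% in Syn1, the log2 fold change was 0.33 (edgeR unadjusted p = 0.0051), and without mouse 9 it was 0.38 (unadjusted p = 0.00532). Without mouse 9, whose library stood apart from the others, Rab3a, Vamp3 and Syt4 had log2 fold changes of 0.28, 0.55 and -0.25 and edgeR unadjusted p of 0.0657, 0.0592 and 0.0743.

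The autosomal paralog Syn2 was 697, 647 and 558 CPM in the less anxious mice, and 534, 582, 743 and 528 CPM in the more anxious mice, with overlap (log2 fold change -0.07, SE 0.122, edgeR unadjusted p = 0.675). Syn3, a synapsin of low level with a median of 7.1 CPM, had a log2 fold change of -0.26 (edgeR unadjusted p = 0.0702) and was named after its values were seen.

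The Rab3 GTPases, which bind vesicles and recruit RIM, contributed 2 of the 11 members. Rab3a was at 425, 514 and 465 CPM in less anxious, 578, 483, 630 and 530.1 in anxious and 587, 576, 615 and 584 in more anxious mice. All 4 more anxious mice lay above all less anxious mice (log2 fold change 0.32, SE 0.104, edgeR unadjusted p = 0.026, adjusted p = 0.707). The much less abundant Rab3b had 35.3, 59.5 and 49.5 CPM in less anxious mice and 102, 67.5, 60.0 and 62.3 CPM in more anxious mice. These also did not overlap, although mice 7 and 9 lay close together (log2 fold change 0.52, SE 0.167, edgeR unadjusted p = 0.0254). Rab3c, at 449 ± 68 CPM in less and 409 ± 54 CPM in more anxious mice, had a log2 fold change of -0.10 (SE 0.116, edgeR unadjusted p = 0.677).

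Among the SNAREs, Snap25 averaged 1723 ± 181 CPM in less, 1830 ± 131 in anxious and 2097 ± 290 in more anxious mice, with overlap (log2 fold change 0.31, SE 0.122, edgeR unadjusted p = 0.0614). Vamp2 (757 ± 45 against 814 ± 45 CPM) and Stx1a (154 ± 33 against 192 ± 52) overlapped between less and more anxious mice, with edgeR unadjusted p of 0.547 and 0.29.

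Vamp3 (cellubrevin), a vesicle SNARE of recycling endosomes found in most cell types, was at 31, 26 and 19.8 CPM in less anxious, 32, 30.2, 28.8 and 19.6 in anxious and 45.1, 33.5, 37.5 and 34.2 in more anxious mice. All 4 more anxious mice were above the other 7, whose 2 groups overlapped (log2 fold change 0.55, SE 0.193, edgeR unadjusted p = 0.022). Stx2, a syntaxin of the plasma membrane named after its values were seen, was lowest in less anxious mice on average (18.8 ± 3 CPM) and highest in anxious mice (24.2 ± 1.2), with edgeR unadjusted p = 0.0456.

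In the priming step, Unc13b (Munc13-2) had 67.4, 53.9 and 75.1 CPM in less anxious and 68.7, 77, 99.9 and 98.2 CPM in more anxious mice. Mouse 12 lay above mouse 2, so the groups overlapped (log2 fold change 0.47, SE 0.146, edgeR unadjusted p = 0.0228). The main brain isoform Unc13a differed little, at 318 ± 16 against 333 ± 7 CPM (log2 fold change 0.07, edgeR unadjusted p = 0.272). Rims1 was at 172 ± 11 CPM in less and 182 ± 21 in more anxious mice (edgeR unadjusted p = 0.435). Cplx1 and Cplx2, the complexins of most forebrain synapses, had log2 fold changes of 0.08 (SE 0.109) and 0.17 (SE 0.116), neither at an unadjusted p under 0.05.

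The calcium sensor Syt1 was steady at 1258 ± 65, 1202 ± 108 and 1273 ± 89 CPM in less anxious, anxious and more anxious mice (edgeR unadjusted p = 0.684). Syt4, an atypical synaptotagmin linked to peptide-filled vesicles, had 238, 210 and 228 CPM in less anxious mice and 185, 171, 179 and 180.5 CPM in more anxious mice. The groups did not overlap, and the anxious mice (174 to 238) spanned both (log2 fold change -0.29, SE 0.092, edgeR unadjusted p = 0.0236). With the GC offset the log2 fold change was -0.22 and the unadjusted p 0.0873.

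Syt2, a fast sensor of brainstem synapses and of parvalbumin interneurons, was at 6.92, 10 and 14.5 CPM in less anxious, 7.99, 5.65, 6.49 and 6.07 in anxious and 10.2, 10.2, 8.93 and 7.48 in more anxious mice. The anxious group was the lowest and mouse 12 the highest (edgeR unadjusted p = 0.0174). Without mouse 12 the log2 fold change of more against less anxious turned from -0.21 to 0.10.

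Of the vesicle glycoproteins, Sv2a, the target of the antiepileptic levetiracetam, was at 399.8 ± 21 CPM in less and 418 ± 98 CPM in more anxious mice (edgeR unadjusted p = 0.751). Sv2c, a paralog enriched in the basal ganglia and named after its values were seen, had 71.1, 85.3 and 99.4 CPM in less anxious and 50.4, 70.9, 49.9 and 44.1 CPM in more anxious mice. The closest values were 71.1 in mouse 3 and 70.9 in mouse 6 (log2 fold change -0.67, SE 0.249, edgeR unadjusted p = 0.0431). Markers of striatal-type neurons lay in the same direction. All 7 (Drd1, Drd2, Adora2a, Ppp1r1b, Rgs9, Penk and Tac1) had lower estimates in more anxious mice with a median log2 fold change of -0.60, and their summed level was 351 to 1028 CPM in less, 272 to 580.3 in anxious and 344 to 665 in more anxious mice. Their part in the Sv2c difference was not tested.

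Rab30, a Golgi GTPase that matched by letters, was the only such member with an unadjusted p under 0.05. It had 27.6, 26.2 and 36.9 CPM in less anxious and 18, 21.5, 17 and 28.7 CPM in more anxious mice, with mouse 10 inside the less anxious range (log2 fold change -0.48, SE 0.183, edgeR unadjusted p = 0.0246).

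**Figure D3:**
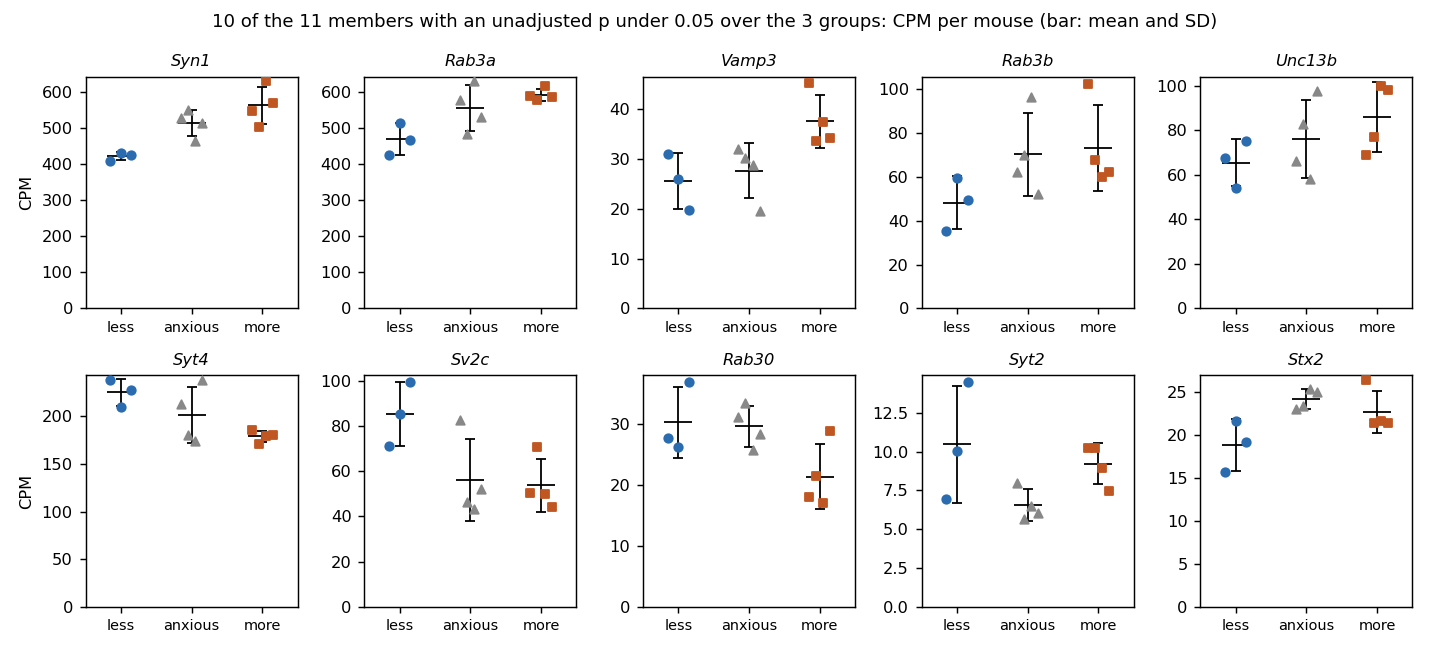
CPM of 10 of the 11 members with an unadjusted p under 0.05 over the groups, with 1 point per mouse, black lines at group means and bars of 1 SD (n = 3, 4 and 4). Syn1, Rab3a, Vamp3 and Rab3b are above all less anxious mice in every more anxious mouse, Syt4 and Sv2c are below, and Syt2 is lowest in the anxious group.

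To remove differences in depth and scaling between animals, paralogs were compared within each mouse, as the log2 ratio of their CPM in 8 pairs, of which 7 are described, and the trend over group order (less anxious, anxious, more anxious) was tested by exact permutation over all 11550 arrangements of the mice, two-sided. Syn1 moved against Syn2. Their log2 ratio was -0.77, -0.59 and -0.39 in less anxious mice 3, 7 and 12. It was -0.26, -0.21, -0.37 and -0.40 in anxious mice, and 0.04, -0.21, -0.24 and 0.11 in more anxious mice. Less and more anxious mice did not overlap, and the group means were -0.58 ± 0.19, -0.31 ± 0.09 and -0.07 ± 0.17. The trend had Pearson r = 0.839 (exact permutation p = 0.00113, adjusted p = 0.009 over the 8 pairs) and Spearman rho = 0.872 (exact permutation p = 0.00104). Leaving out each mouse in turn kept r between 0.805 and 0.881. Group order was set from PC2 of these same counts, and Syn1 is on the study's list, so this p is not independent evidence. Syn2 differed little between less and more anxious mice (log2 fold change -0.07), so the trend is not separate from the Syn1 difference.

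Rab3c against Rab3a did not pass. The log2 ratio was 0.00, -0.37 and 0.18 in less anxious and -0.72, -0.60, -0.54 and -0.29 in more anxious mice, with overlap between mice 7 and 10 (r = -0.690, exact permutation p = 0.0177, adjusted p = 0.071, rho = -0.645). The other pairs, Vamp1/Vamp2, Syt2/Syt1, Cplx1/Cplx2, Sv2b/Sv2a and Rims2/Rims1, had r from -0.568 to -0.098 and adjusted p of at least 0.185. The numerator and denominator of Syn1/Syn2 differ in GC content (57.9% and 51.6%), and across members the log2 fold change of more against less anxious had a correlation of 0.257 with GC content over 87 genes, against 0.169 over 15827 genes with a mean of at least 1 CPM. The part of GC content in the ratio trend was not tested.

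**Figure D4:**
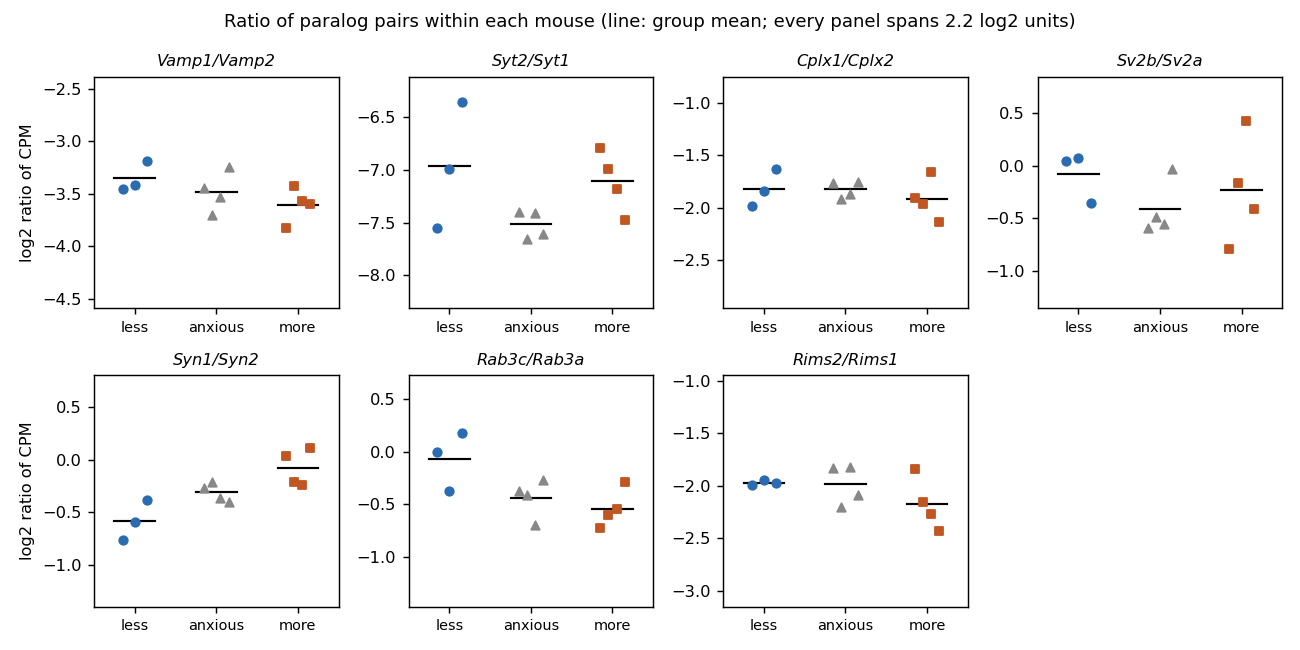
Log2 ratio of CPM within each mouse for 7 paralog pairs by anxiety group, with 1 point per mouse and black lines at group means; every panel spans the same height. Syn1/Syn2 has group means from -0.58 to -0.07 and Rab3c/Rab3a from -0.07 to -0.54. Less and more anxious mice overlap in every pair but Syn1/Syn2.

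Because this pair had the strongest ratio trend, the sequence just before the start of Syn1 and of Syn2 is shown, as given by RefSeq on build GRCm38.p6, 5′ to 3′ on the strand of the gene. Syn1 lies on the minus strand at chrX:20860511-20921004 and Syn2 on the plus strand at chr6:115134902-115282006 in GENCODE M21. The bases that precede both the RefSeq and the GENCODE start within a window of 250 bases are chrX:20921005-20921168 for Syn1 and chr6:115134652-115134901 for Syn2. Capitals mark 3 motifs, searched on both strands: the cAMP response element TGACGTCA, which is its own reverse complement, the GC box GGGCGG, and TTCAGCACC, the left arm of the RE1 element that the repressor REST binds.
Syn1: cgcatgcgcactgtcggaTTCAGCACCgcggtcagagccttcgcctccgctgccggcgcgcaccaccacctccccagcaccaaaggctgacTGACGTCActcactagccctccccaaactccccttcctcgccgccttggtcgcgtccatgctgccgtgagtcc
Syn2: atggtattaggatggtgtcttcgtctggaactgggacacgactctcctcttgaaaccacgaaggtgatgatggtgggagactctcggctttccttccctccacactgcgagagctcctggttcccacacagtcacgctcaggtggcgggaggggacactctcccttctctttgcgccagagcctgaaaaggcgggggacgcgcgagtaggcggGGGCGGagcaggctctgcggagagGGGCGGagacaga

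The stretch of Syn1 held 1 cAMP response element and 1 RE1 left arm, and that of Syn2 held 2 GC boxes. Its GC content was 67.1% for Syn1 and 61.2% for Syn2. In windows of 250 bases before the RefSeq start, found for 66 of the 88 members, 45 (68.2%) held a GC box, beside 33.0% of 27025 genes. The cAMP response element was in 2 (3.03%, beside 1.60% of genes) and the RE1 left arm in 1, Syn1 (1.52%, beside 0.292% of genes). All members are protein-coding, and no such limit was applied to the 27025 genes, so the shares do not compare like genes. None of the 3 motifs contains another, and a match describes the sequence only.

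The behavior measures were recorded apart from the RNA counts, and the fits to them do not use the groups. They are not a fresh comparison for genes picked over the groups. The study chose PC2 to form the groups because it correlated highly with LD and EPM measures of these mice. Each of 7 measures was fitted as a standardized number with edgeR, and effects are log2 changes per SD of the measure. No member passed an adjusted p of 0.05 for any measure, a threshold that 0.00742% of all genes passed for time in the light, while total entries, open-arm time and distance in the light had 0.00% each. For the SIT it was passed by 0.0150% at 3 min, 0.0111% at 5 min and 0.0223% at 10 min. DESeq2 called 1, Stxbp2 for total entries, where 0.130% of genes were called. At an unadjusted p under 0.05, 8 members related to time in the light (background 3.55%), 9 to distance in the light (5.80%), 7 to open-arm time (5.84%) and 5 to total entries (6.97%). For the SIT, in which the labels give a box:zone ratio that they do not define further, there were 7 at 3 min (10 mice, background 7.65%), 7 at 5 min (6.56%) and 7 at 10 min (8.05%). As shares of 88, these run from 5.68% to 10.2%. In all, 25 members (28.4%) reached this level for at least 1 measure, beside 26.3% of the 26651 genes tested for every measure. For at least 3 measures 7 members did (7.95%), beside 4.62%. Among genes with a mean of at least 1 CPM the shares were 29.4% and 5.43%.

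Stxbp2 (Munc18-2) is a syntaxin-binding protein known for granule release in immune cells and at surfaces of epithelia. Of all members it recurred most, in 6 of the 7 measures and always with a negative sign. These measures overlap, as they come from the LD, the EPM and nested times of the SIT. The CPM of Stxbp2 ran from 39.5 in mouse 3 over a median of 50.5 to 83.5 in mouse 2. That animal had the fewest EPM entries (6) and the least open-arm time (2.33%). Per SD of total entries Stxbp2 was lower by a log2 change of -0.23 (SE 0.051, edgeR unadjusted p = 0.000438, adjusted p = 0.496, DESeq2 adjusted p = 0.0398). For open-arm time the change was -0.21 per SD (SE 0.06, edgeR unadjusted p = 0.00335). These values depended on mouse 2. Without this mouse the change per SD was -0.10 for entries (edgeR unadjusted p = 0.0885), -0.12 for open-arm time (unadjusted p = 0.0305), -0.09 for time in the light (unadjusted p = 0.0981) and -0.10 for distance in the light (unadjusted p = 0.0659). For the box:zone ratio the change was -0.05 at 5 min (edgeR unadjusted p = 0.461) and -0.08 at 10 min (unadjusted p = 0.212). The LD and open-arm values also depended on mouse 5. Of the 12 mice it had the lowest Stxbp2 (31.6 CPM) and the least time in the light (12.1%). The study left this library out as an outlier, and it had the fewest genes with a count (23768, against 26378 to 28196 in the others). With mouse 5 included, the change was -0.10 for time in the light (edgeR unadjusted p = 0.285), -0.13 for distance in the light (unadjusted p = 0.176), -0.16 for open-arm time (unadjusted p = 0.0675) and -0.22 for entries (unadjusted p = 0.00388).

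Cplx3, a complexin best known from ribbon synapses of the retina, was negative in all 4 LD and EPM measures. It ranged from 3.78 CPM in mouse 12 over a median of 5.22 to 8.11 CPM in mouse 2. Per SD of distance in the light the log2 change was -0.27 (SE 0.072, edgeR unadjusted p = 0.00211, adjusted p = 0.688), and between -0.31 and -0.22 when each mouse was left out. For total entries the change was -0.12 without mouse 2 (edgeR unadjusted p = 0.282), so that relation depended on this mouse. For time in the light it lay between -0.28 and -0.17 when each mouse was left out, with an edgeR unadjusted p of up to 0.0735. The level of Cplx3 stayed under 10 CPM in every mouse. Rims3, a short RIM protein named after its values were seen, had the opposite sign for distance in the light with 0.19 per SD (SE 0.051, edgeR unadjusted p = 0.00225), from 72.4 CPM in mouse 4 to 118 CPM in mouse 12.

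Of the genes that led the SIT, Syt10, a synaptotagmin tied to growth factor secretion, was highest in mouse 7 (6.05 CPM), which had the lowest ratio at 3 min (0.236), and lowest in mouse 3 (1.92 CPM). The change was -0.38 per SD (SE 0.106, edgeR unadjusted p = 0.00287, adjusted p = 0.352). Rab39b, an X-linked neuronal GTPase that matched by letters, changed by 0.16 per SD of the ratio at 10 min (SE 0.043, edgeR unadjusted p = 0.0024). That rested on mouse 3, whose ratio of 2.62 and level of 55.5 CPM were both the highest, the other mice lying between 34 and 41.9 CPM. Without mouse 3 the change was 0.02 (unadjusted p = 0.588).

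Of the genes described over the groups, which share these mice, Syn1 reached an unadjusted p under 0.05 for open-arm time alone (-0.13 per SD, SE 0.05, edgeR unadjusted p = 0.0203), Rab3a for none, and Vamp3 for open-arm time (-0.22, unadjusted p = 0.0115) and total entries (-0.23, unadjusted p = 0.00768). Without mouse 2 both changes of Vamp3 were smaller, at -0.16 (unadjusted p = 0.0644) and -0.14 (unadjusted p = 0.134). Sv2c was positive for time and distance in the light (0.25 and 0.28 per SD, edgeR unadjusted p = 0.0429 and 0.0131). All 7 striatal-type markers were positive for both, none of them at an unadjusted p under 0.05. Their part in these values was not tested.

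**Figure D5:**
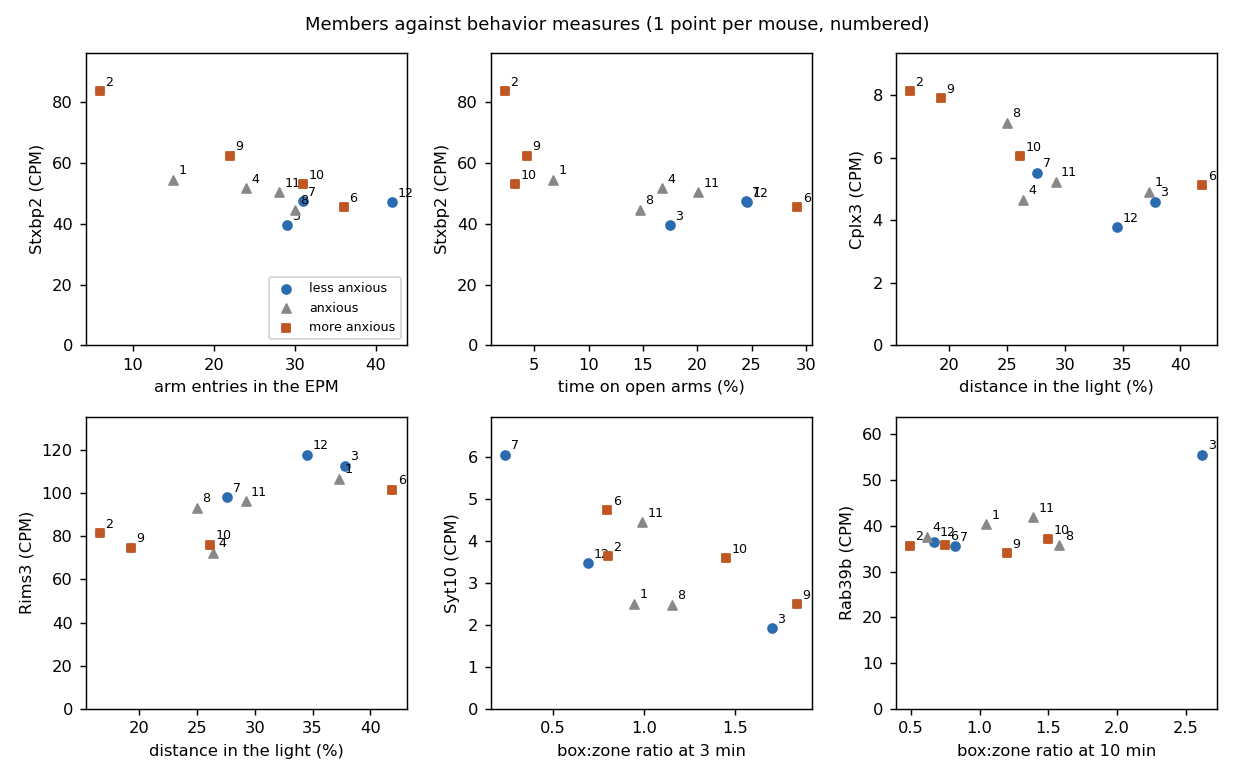
CPM of members against behavior measures, with 1 numbered point per mouse, colored by anxiety group; the vertical axes start at 0. Stxbp2 is highest in mouse 2, which had 6 arm entries, mice with more distance in the light have less Cplx3 and more Rims3, and the slope of Rab39b rests on mouse 3.

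Other presynaptic genes gave the frame for these values. In a list of 54 genes of the active zone, vesicle cycle and transmitter loading, 27 were higher and 27 lower in more anxious mice with a median log2 fold change of 0.00, none passed the adjusted threshold, and 6 had an unadjusted p under 0.05, beside the 6.35% of all genes. These were Sncb (0.66, edgeR unadjusted p = 0.000134), Dnm1 (0.37), Napa (0.28) and Apba2 (0.25) among the higher genes and Cask (-0.50) and Scamp1 (-0.26) among the lower ones.

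No cell type marker passed the adjusted threshold over the groups, and the signs of the estimates were as follows. Of 8 neuron markers, a list that contains the members Snap25 and Syt1, 7 had higher estimates in more anxious mice (median 0.18), and of 6 excitatory markers 5 did (median 0.38), while of 9 inhibitory markers 4 were higher and 5 lower (median -0.0038). Of 8 markers of amygdala nuclei 7 had lower estimates (median -0.24), as did 7 of 8 oligodendrocyte (median -0.09), 3 of 4 oligodendrocyte precursor (median -0.22) and 5 of 6 choroid plexus markers (median -0.37). Pituitary markers, with a sum of at most 57.7 CPM in every mouse, had 3 higher and 3 lower estimates. All 8 astrocyte, 7 microglia and 6 endothelial markers had lower estimates (medians -0.24, -0.20 and -0.45). The summed astrocyte level was 3669 to 4375 CPM in less anxious, 3117 to 3876 in anxious and 3137 to 3614 in more anxious mice. Fewer cells of a type and less RNA per cell cannot be told apart in tissue, and the part of this in the member values was not tested. The defining neuron markers were present at high level in all libraries, with a sum of at least 5365 CPM.

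Totals ran from 31745630 to 45142355 estimated counts over the 11 mice, and 26 members had a median of 100 CPM or more and 7 a median under 1 CPM. Mitochondrial transcripts took 10.6% to 15.9% of counts. Each mouse is a separate animal, and no pair of libraries matched within sampling noise, the lowest mean chi-square per gene over 66 pairs being 18.7.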

How the data were processed

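Amygdala RNA of 12 female C57/BL6 mice was analysed. The authors deposited estimated counts per gene, unnormalized and as whole numbers (expected counts in the sense of such tools), after trimming, alignment to mm10 with STAR for quality checks, quantification with Salmon and summing to genes with tximport. Tool versions, the annotation release and the strand setting are not given in the sources used here. Salmon divides reads shared by similar transcripts, so paralogs with alike sequence are less certain. Gene names, exon lengths and GC content were read from the GENCODE M21 annotation of GRCm38, which matched 47310 of 47729 identifiers, and promoter sequences were RefSeq's.

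Members and lists were chosen with earlier results of these data known. edgeR 4.0.16 (R 4.3.3; quasi-likelihood F-test, robust, TMM) tested genes with at least 10 counts over 11 mice, jointly over both group coefficients with PC1 of blind variance-stabilized counts as covariate, and each of 7 behavior measures without covariate. Adjusted p-values are Benjamini-Hochberg over all genes. DESeq2 1.42.0 was the alternative. Ratios used log2 CPM with a prior count of 2 and exact permutation tests. Tables and permutation tests ran in Python 3.11.15 with scipy 1.17.1 and pandas 2.3.3. Mouse 5, without a group, entered only as an alternative. On simulated data with 200 genes changed 2-fold between more and less anxious mice among 26963 genes, edgeR recovered 178 with 6 false calls. DESeq2 recovered 186 and made 48 calls among unchanged genes. The changed genes were drawn from the more abundant ones. Changes as small as those of the members (median absolute log2 fold change 0.16) were not simulated, so recovery at that size is not known.

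Totals of 31745630 to 45142355 counts per mouse set the precision, and replicates are separate animals. Named were 14 core release genes, the 8 members with the smallest p over the groups, the member with the smallest p for each measure, the 8 paralog pairs, and the members with the highest and lowest level or nearest the count minimum. Others are marked, and results on some of these genes are not reported here. Alternatives covered size factors, count filters, covariate, group coding, a GC offset, family membership, ranks, mouse 5 and each mouse left out.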

Additional observations from a re-analysis of the deposited data

Results flagged for a closer look

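Each group of 4 mice was examined for a mouse whose distance to its nearest neighbour took a larger share of the group's whole range than Dixon's 95% critical value for 4 samples. Among 78 groups of values 2 passed, where chance passes about 1 in 20. Rims1, the active-zone scaffold, was at 141.623 CPM in anxious mouse 8, against 171.824 to 176.221 CPM in the other 3 anxious mice. Syp, the vesicle membrane protein, was at 1339.24 CPM in anxious mouse 4, against 1486.4 to 1498.15 CPM in the others of that group. Both values lay on the low side, in different mice, and neither gene differed over the groups at an unadjusted p under 0.05 in edgeR.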

How the results depend on the processing

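With 3 to 4 mice per group a result can rest on 1 animal, and no group comparison is independent of the counts that defined the groups. No paired analysis was possible because the groups share no animal, litter or batch number in the labels, whose titles number the mice across all groups. In edgeR no member passed the adjusted threshold under any alternative over the groups or the 7 measures, the fits without each mouse included. DESeq2 called 1 over the groups and 1 for total entries. Of the alternatives, 508 values for named members kept their direction and side of the threshold, 1 passed newly (Syn1 in DESeq2) and 11 changed sign. Causes were not tested.

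Numbers of members with an unadjusted p under 0.05 are given with the share of all genes in the same fit. Over the groups (11; 6.35%) it was 20 with ordered groups (9.18%) and 3 (4.57%) to 16 (7.31%) without each mouse. For time in the light (8; 3.55%) it was 3 with all 12 mice (3.43%) and 2 (2.78%) to 16 (10.1%) without each mouse, and for distance (9; 5.80%) 5 (4.38%) to 19 (10.8%). For open-arm time (7; 5.84%) it was 13 with PC1 (8.27%), 4 with all 12 mice (4.62%), 13 with ranks (6.25%) and 3 (4.54%) to 11 (6.74%) without each mouse. For total entries (5; 6.97%) it was 10 with PC1 (8.54%) and 2 (3.74%) to 12 (7.53%), and for the ratio at 3 min (7; 7.65%) 14 with PC1 (8.81%) and 3 (6.29%) to 10 (7.18% and 8.34%). At 5 min (7; 6.56%) it was 3 with all 12 mice (5.37%), 4 with ranks (4.84%) and 0 (3.49%) to 12 (9.45%), and at 10 min (7; 8.05%) 2 with all 12 mice (6.05%), 4 with ranks (4.37%) and 3 (2.84%) to 11 (10.2%). The lowest LD and EPM numbers came without mouse 2 and the highest without mouse 6 (mouse 1 for entries), and those at 5 and 10 min without mice 3 and 8. At 3 min the lowest came without mouse 7 and the highest without mouse 3 or 9.

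As a difference of more and less anxious means, Syn1/Syn2 was 0.51 with an adjusted exact permutation p of 0.305, in a comparison of 3 against 4 mice whose smallest unadjusted p is 0.0571. Without each mouse r was 0.805 to 0.881 for Syn1/Syn2, -0.783 to -0.595 for Rab3c/Rab3a (adjusted p under the threshold without mouse 7, 8 or 10), -0.257 to 0.337 for Syt2/Syt1 and -0.518 to 0.037 for Sv2b/Sv2a.

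Log2 fold changes that changed sign without 1 mouse ranged from -0.046 (without mouse 2) to 0.254 for Sv2a, from -0.011 (mouse 3) to 0.172 for Cplx1 and from -0.011 (mouse 12) to 0.094 for Syt1. They ranged from -0.940 to 0.600 (mouse 12; 0.052 without mouse 6) for Vamp9, from -0.374 to 0.348 (mouse 7) for Syt10, from -0.213 to 0.080 (mouse 7) for Sv2b, from -0.196 to 0.029 (mouse 7; 0.0066 without mouse 10) for Syn2, from -0.405 to 0.103 (mouse 12) for Syt2 and from -0.185 to 0.020 (mouse 12) for Rab3c. The median of all members was between -0.01 and 0.04 without each mouse, and between 43 and 51 members were higher. Depth limits Cplx4, Vamp9 and the other members under 1 CPM.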

Other observations

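Mouse 5 has no anxiety group in the labels, and the study left it out as an outlier. It was scaled together with the other 11 for these values. It lay above their range in 6 members and below it in 7, which is 14.8% of members, against 32.6% of the 15891 genes with a mean of at least 1 CPM. Above the range were Vamp4 (93.4 CPM, others up to 88), Snap29 (23, others up to 21), Stx18 (22.25, others up to 22.22), Stxbp3 (20, others up to 17.7), Syt14 (19.7, others up to 19.4) and Rab38 (1.1, others up to 0.982). Below it were Snap47 (277, others from 311), Stxbp2 (31.6, others from 39.5), Stx6 (40.8, others from 47), Syt3 (42, others from 42.6), Rab3b (33.8, others from 35.3), Vamp8 (4.02, others from 4.49) and Stx11, with 0 counts. Syn1 in mouse 5 was at 433 CPM. Its time in the light was 12.1% and its open-arm time 7.34%.

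Over the 12 mice, the highest value of a member was most often in mouse 9 (15 members) and mouse 12 (13 members). The share of all genes with their highest value in these mice was not computed, and the library of mouse 9 stood apart. The counts are therefore not read as a trait of the members.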
